A study of Rattus norvegicus with 35 samples.

Results

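The genes of 10 neuropeptide precursors of the hippocampus, Sst, Npy, Vip, Cck, Penk, Pdyn, Tac1, Crh, Cort and Adcyap1, were followed across 7 groups of female rats. They were chosen by name among the 15059 genes of the deposited count table, 8 of the 10 had a row under their symbol, and all 8 passed the filter on low counts that left 14411 genes for testing. Npy and Cort had no row under their symbols and were not analysed here. The RNA came from the hippocampus of Sprague Dawley rats operated on at 6 months of age. One group, called sham here, kept its ovaries. The other 6 groups were ovariectomised, and after a 2-week washout all received a daily intraperitoneal injection for 7 days. The injection held vehicle, 17β-estradiol (0.16 mg/kg), tamoxifen (3.23 mg/kg), raloxifene (9.68 mg/kg), exemestane (0.16 mg/kg) or anastrozole (4.03 mg/kg). Estradiol is the main ovarian estrogen, tamoxifen and raloxifene are selective estrogen receptor modulators, and exemestane and anastrozole inhibit aromatase, the enzyme that makes estrogens from androgens. Each group had 5 libraries, 35 in all. The labels do not say that each library is 1 animal, so p-values measure the spread between libraries.

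Neuropeptides are cut from larger precursor proteins by prohormone convertases, stored in dense-core vesicles and released to act on G protein-coupled receptors. In the hippocampus Sst (somatostatin) is made by interneurons that inhibit dendrites, Vip (vasoactive intestinal peptide) by interneurons that mostly inhibit other interneurons, and Cck (cholecystokinin) by basket cells and by some excitatory cells. Pdyn (prodynorphin) is known from the granule cells of the dentate gyrus, Penk (proenkephalin) from scattered cells and afferents, and Tac1 (substance P and neurokinin A), Crh (corticotropin-releasing hormone) and Adcyap1 (PACAP) from smaller sets of neurons. Transcription of Sst and Vip is known to respond to cyclic AMP through the factor CREB, which binds the cyclic AMP response element.

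RefSeq's table of promoters (build GRCr8) held 300 bases around the start, 250 before and 50 after, for 5 of the 8 measured precursors, namely Sst, Vip, Pdyn, Tac1 and Adcyap1. The stretches of 30 bases below are shown because they hold the letters of the cyclic AMP response element near the starts of members discussed here. Capitals mark TGACG or TGACGTC on either strand, and the runs are written 5′ to 3′ on the plus strand, which is the strand of all 3 genes.
Sst, chr11:90461537-90461566: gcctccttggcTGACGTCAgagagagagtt
Vip, chr1:44470372-44470401: gatcaccactgTGACGTCtttcgaggagcc
Tac1, chr4:36645366-36645395: ccctaaaattgCGTCAtttcgaacccaatt
The whole palindrome TGACGTCA lay at bases 3 to 10 after the start of Sst and was found in 1.83% of the 33469 windows of all genes, both strands searched. The 7 letters TGACGTC, which the palindrome contains, lay 97 to 91 bases before the start of Vip and were in 3.22% of windows. Tac1 held the 5 letters TGACG on the minus strand, 206 to 202 bases before its start, and 21.2% of windows held them on either strand. The estrogen response element (GGTCA, any 3 letters, TGACC) was in none of the 5 windows and in 0.0269% of all windows, and its first 5 letters alone, GGTCA, were in the window of Vip, 22 to 18 bases before the start, and in 40.5% of all windows. These are letter matches in 1 window per gene, and each position, that of Sst included, depends on the start used. For Sst this start is the first base of the span RefSeq gives the gene. The starts used for Vip and Tac1 lie inside that span. Other starts were not examined.

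The libraries held 5.58 M to 12.1 M counts (median 8.01 M), and levels are given as CPM (counts scaled to a common library total) after normalization of library size by edgeR's TMM method. CPM is not corrected for transcript length, so levels are compared between libraries and not between genes. Markers of the labelled tissue were present, with 9 of 11 dentate granule cell genes and 13 of 15 genes of the CA fields tested. The ratio of the 2 deposited tables split the libraries into classes of 20 and 15, called A and B here, whose origin is not given in the sources used here. The first component of that ratio over 14326 genes held 72.3% of its variance and the second 1.69%. Class A held all sham and estradiol libraries, 4 of 5 vehicle, 3 of 5 anastrozole, 2 of 5 tamoxifen and 1 of 5 exemestane libraries, and class B held all 5 raloxifene libraries. Group and class therefore overlap, and each comparison below is given with groups alone and with class added to the model. One library, sham replicate 1, stood apart in several marker lists. Of 11 thalamus and habenula genes tested, 5 were highest there, led by the glutamate transporter gene Slc17a6 (136 CPM against at most 29.7 CPM elsewhere) and the transcription factor gene Tcf7l2 (90.8 CPM against at most 15.4 CPM), and 4, namely Prkcd, Nwd2, Plekhg1 and Ramp3, were below their median. The list of hypothalamus and amygdala genes summed to 679 CPM there and to 243 to 547 CPM in the other 34 libraries, with 3 of its 6 genes highest there, among them Baiap3 (83.3 CPM against at most 18.9 CPM). The GABAergic list was also above all other libraries (2030 CPM against 1440 to 1680 CPM), and the sums of the dentate, CA field, neocortical and striatal lists were below those of all other libraries, although the striatal list's Drd2 was highest there (14.2 CPM against at most 4.46 CPM).

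The somatostatin gene Sst and the cholecystokinin gene Cck followed library class closely. Sst in the vehicle libraries measured 71.7, 75.4, 72.4, 47.1 and 58.7 CPM in replicates 1 to 5, and the fourth is the only class B library of that group. Sham libraries had 53.2, 77.4, 85.8, 74.3 and 85.4 CPM of Sst, with replicate 1 the lowest. Estradiol libraries had 76.4, 73, 80.8, 77.4 and 88.8 CPM of Sst. They lay close together at the upper end, and 4 of the 5 were above every vehicle library. Tamoxifen libraries had 78 and 62.7 CPM of Sst in class A and 63.8, 56.9 and 47 CPM in class B. Raloxifene libraries, all class B, had 46, 57.2, 53.2, 52.2 and 54 CPM of Sst. Exemestane libraries had 48.8, 48.4, 47.9 and 50.8 CPM of Sst in class B and 70.4 CPM in the 1 library of class A. Anastrozole libraries had 73.5, 84.8 and 77.2 CPM of Sst in class A and 51.3 and 55.1 CPM in class B. Within vehicle, exemestane and anastrozole the classes did not overlap, and within tamoxifen they did.

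**Figure D1:**
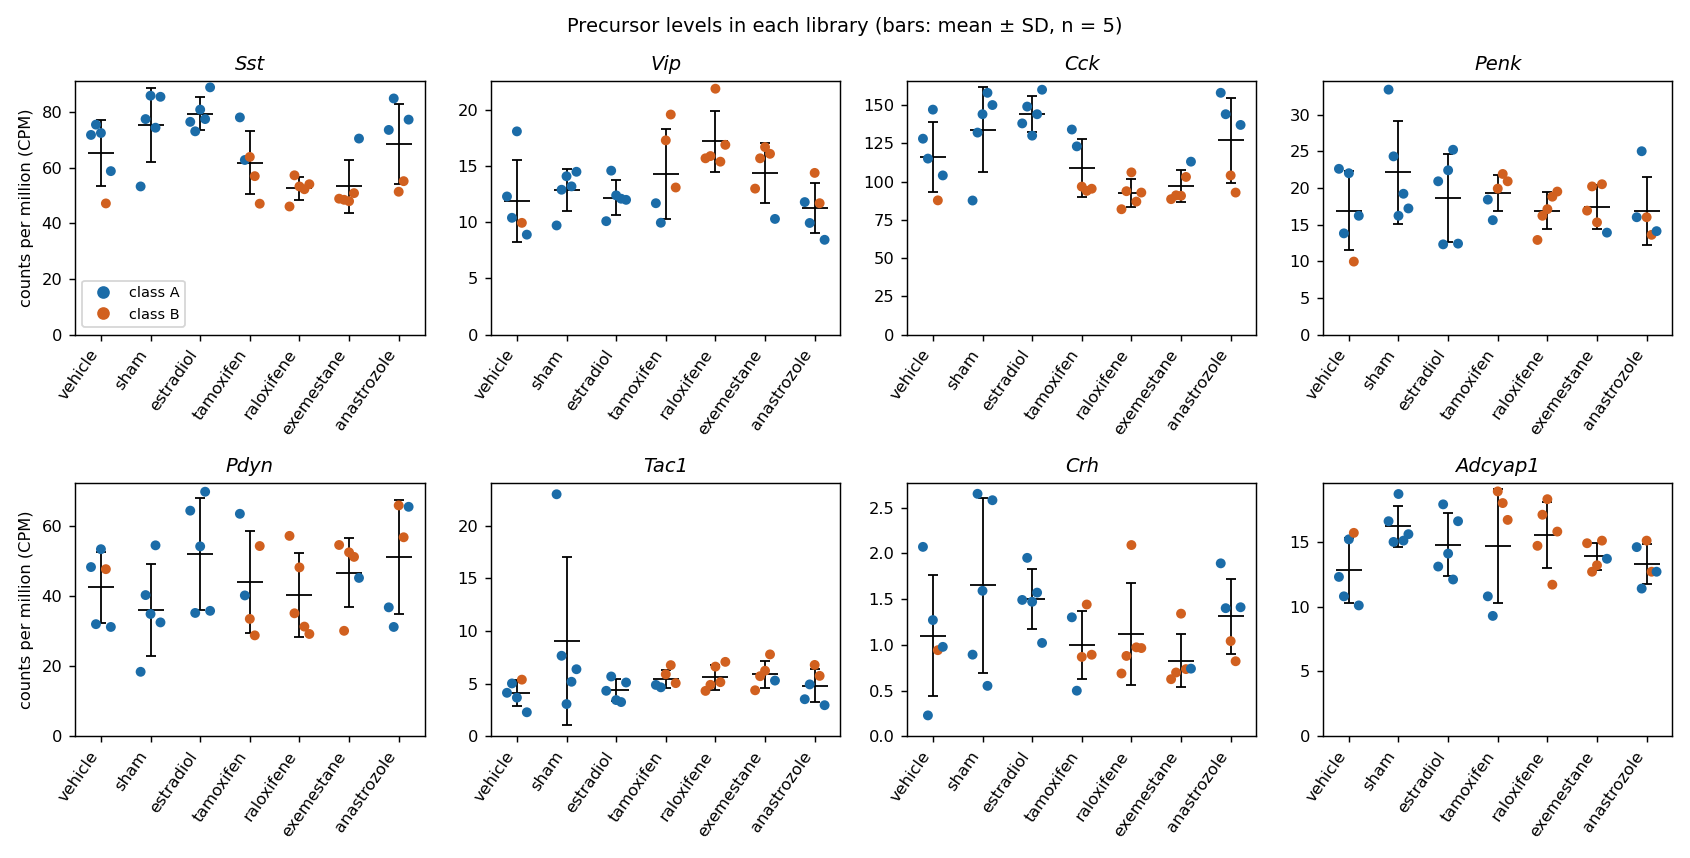
Level of each measured precursor in CPM (vertical axis) by group (horizontal axis). Each point is 1 library, blue for class A and orange for class B, and bars give the mean ± SD (n = 5). Sst and Cck are lower, and Vip mostly higher, in the orange libraries, and the highest Tac1 point (23 CPM) is sham replicate 1.

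By group, mean Sst ran from 79.3 ± 6 CPM in estradiol (SD, n = 5) through 75.2 ± 13.3 in sham, 68.4 ± 14.5 in anastrozole, 65.1 ± 11.9 in vehicle, 61.7 ± 11.3 in tamoxifen and 53.2 ± 9.65 in exemestane to 52.5 ± 4.1 CPM in raloxifene. No neighbours in that order differed by more than the larger of their SDs. By class, Sst was 74.9 ± 8.9 CPM in class A (n = 20) and 52 ± 4.88 CPM in class B (n = 15), and 17 of the 20 class A libraries lay above all class B libraries.

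Cck gave the same order of groups. Vehicle libraries had 128, 115, 147, 87.7 and 104 CPM of Cck, and the fourth, of class B, was the lowest. Raloxifene libraries had 81.9, 93.7, 106, 86.9 and 92.8 CPM of Cck, overlapping the lower vehicle values. Estradiol libraries had 138, 149, 130, 144 and 160 CPM of Cck, 2 of them above all vehicle libraries. Sham libraries had 87.6, 132, 144, 158 and 150 CPM, with replicate 1 again the lowest. In the remaining groups Cck was 123 and 134 CPM in class A against 93.9 to 96.7 CPM in class B of tamoxifen, 113 against 88.5 to 103 CPM in exemestane, and 137 to 158 against 92.8 and 104 CPM in anastrozole. Thus the classes did not overlap for Cck inside any of the 4 groups that held both, though in vehicle and exemestane 1 side was a single library. The share of all genes separated in this way was not counted, for Cck here or for Sst above. Mean Cck was 135 ± 19 CPM in class A and 93.6 ± 6.64 CPM in class B, and 18 of the 20 class A libraries lay above all of class B.

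Vip ran the other way between classes, with more overlap. Vehicle libraries had 12.3, 10.4, 18.1, 9.95 and 8.9 CPM of Vip, replicate 3 standing well above the other 4. Raloxifene libraries had 15.7, 15.9, 21.9, 15.4 and 16.9 CPM of Vip, so that 4 of 5 vehicle libraries lay below all raloxifene libraries. Tamoxifen libraries had 11.7 and 9.96 CPM of Vip in class A against 17.3, 19.6 and 13.1 CPM in class B. Exemestane libraries had 10.3 CPM in class A against 13, 15.7, 16.7 and 16.1 CPM in class B, again without overlap, though class A was 1 library. In anastrozole the classes overlapped, at 8.44 to 11.8 CPM in class A and 11.7 to 14.4 CPM in class B. The share of all genes separated as in tamoxifen and exemestane was not counted. Vip ranged from 9.72 to 14.5 CPM in sham, from 10.1 to 14.6 CPM in estradiol and from 8.44 to 14.4 CPM in anastrozole. In the order of group means, raloxifene (17.2 ± 2.72 CPM) exceeded the next group, exemestane (14.4 ± 2.68 CPM), by slightly more than the larger SD, and no other neighbours were that far apart. The single class B library of vehicle, at 9.95 CPM, was the lowest of the 15 class B libraries for Vip, so the direction of the class difference in vehicle was opposite to that in tamoxifen and exemestane. Across classes Vip was 11.9 ± 2.31 CPM in A and 15.6 ± 2.98 CPM in B.

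With class fitted beside group, 4 of the 8 precursors differed between classes, and so did 51.9% of all genes tested (25.5% higher and 26.3% lower in class B), so a share of this size is not particular to the precursors. Sst was lower in class B by a log2 fold change of -0.49 ± 0.0767 (SE, edgeR adjusted p = 2.02e-06). Cck was lower by a similar amount, with a log2 fold change of -0.46 ± 0.0859 (edgeR adjusted p = 4.57e-05). Vip was higher in class B, at 0.36 ± 0.132 (edgeR adjusted p = 0.024), and so was Adcyap1, at 0.35 ± 0.105 (edgeR adjusted p = 0.00558). Penk (-0.10), Pdyn (0.08), Tac1 (0.44) and Crh (-0.21) did not pass the test. In bulk RNA fewer cells of a type and less RNA per cell cannot be told apart. The factors by which the deposited normalized values differ from counts moved the same way as the 4 called genes. Their log2 difference of class B minus class A was -0.24 for Sst, -0.331 for Cck, 0.235 for Vip and 0.0836 for Adcyap1. The central 95% of all genes lay between -0.377 and 0.317. The factors of Penk (-0.0473), Pdyn (0.0283), Tac1 (0.0177) and Crh (-0.165) also had the sign of the class difference. When these factors entered the model, the class difference passed for Sst (-0.26) and Adcyap1 (0.29) alone, against 27.2% of all genes.

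A test for any difference among the 7 groups called 2 of the 8 precursors, Cck (edgeR adjusted p = 0.00381) and Sst (edgeR adjusted p = 0.00563). The same test called 37% of all genes. Tac1 (edgeR adjusted p = 0.0539) and Vip (edgeR adjusted p = 0.061) came next, and DESeq2's likelihood ratio test called both of them as well, 4 of 8 precursors against 40.5% of genes. With class in the model no precursor was called, with 2 at an unadjusted p under 0.05, against 0.0278% of genes called. The adjusted p of Cck then became 0.686 and that of Sst 0.709. Within class A alone and within class B alone no precursor was called in this test.

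Raloxifene against vehicle compares this modulator with its solvent in rats without ovaries. Vip was the only 1 of 8 precursors called, higher by a log2 fold change of 0.53 ± 0.177 (1.44-fold, edgeR adjusted p = 0.0301). The same comparison called 24.8% of all genes, made up of 13.4% higher and 11.4% lower. Cck (-0.33 ± 0.145, edgeR adjusted p = 0.0876) and Sst (-0.31 ± 0.145, edgeR adjusted p = 0.108) were lower without passing. With class in the model Vip had a log2 fold change of 0.24 ± 0.195 (edgeR adjusted p = 0.966), Sst one of 0.10 and Cck one of 0.05, and none of the 8 was called, as against 0.00694% of genes. Inside class B, 5 raloxifene libraries faced the 1 vehicle library of that class, and the difference was 0.79 ± 0.229 for Vip (edgeR adjusted p = 0.145), 0.16 for Sst and 0.07 for Cck, with the lone library assumed to vary like the others. The call on Vip was lost when raloxifene replicate 3 or 5, or vehicle replicate 1, 2, 4 or 5, was left out (log2 fold change 0.43 to 0.73 over the 10 fits, edgeR adjusted p 0.0348 to 0.0889). Without vehicle replicate 4, the only class B library of vehicle, Cck (-0.42) and Sst (-0.41) were called and Vip was not.

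**Figure D2:**
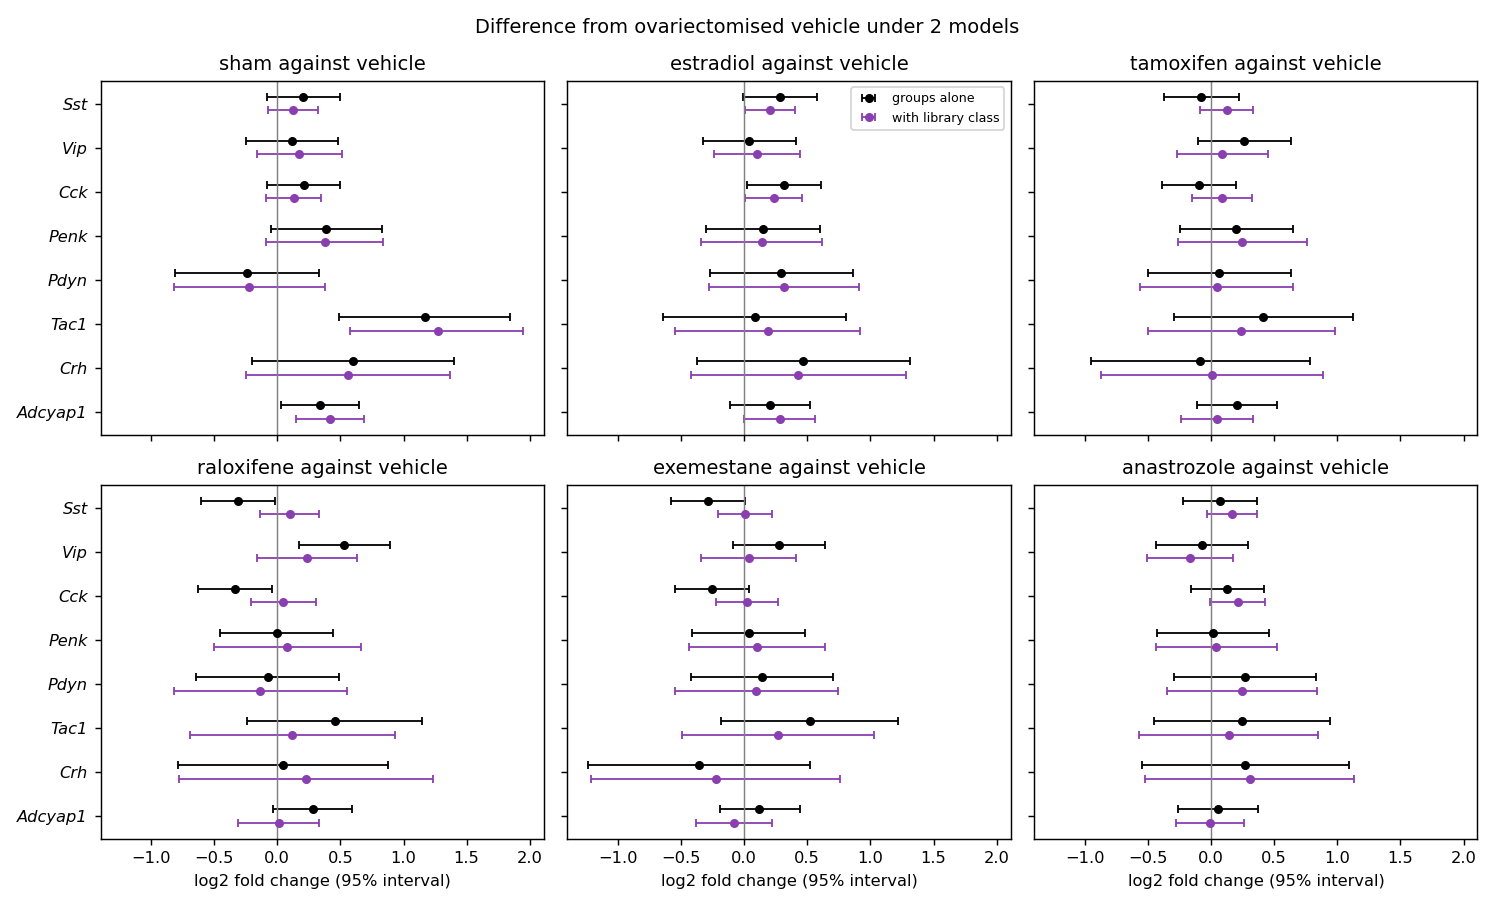
Log2 fold change of each precursor against ovariectomised vehicle (horizontal axis, bars are 95% intervals) in the 6 other groups, from the model with groups alone (black) and from the model with library class added (purple). In raloxifene the values of Sst and Cck move from below 0 (-0.31 and -0.33) to 0.10 and 0.05, and that of Vip from 0.53 to 0.24.

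Sham against vehicle compares rats with and without ovaries. No precursor was called, with 2 at an unadjusted p under 0.05, and edgeR called 0% of all genes (981 at an unadjusted p under 0.05) while DESeq2 called 0.0864% of genes and no precursor. Tac1 had the largest difference of the 8, a log2 fold change of 1.17 ± 0.333 (edgeR adjusted p = 0.409). It rested on 1 library: the sham libraries had 23, 7.65, 3.06, 5.18 and 6.37 CPM of Tac1 and the vehicle libraries 4.13, 5.02, 3.67, 5.38 and 2.28 CPM. Without sham replicate 1 the difference was 0.44 (edgeR adjusted p = 0.858). Adcyap1, the PACAP precursor, had 16.6, 15, 18.7, 15.1 and 15.6 CPM in sham and 12.3, 10.8, 15.2, 15.7 and 10.1 CPM in vehicle. All sham values of Adcyap1 lay in the upper part of the vehicle range or above it, and its log2 fold change was 0.34 ± 0.153 with groups alone (edgeR adjusted p = 0.675) and 0.42 ± 0.133 with class in the model (edgeR adjusted p = 0.241). Of the other precursors, Pdyn was at -0.24 and the remaining 5 between 0.11 and 0.60.

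Estradiol against vehicle compares hormone replacement with none. All 8 precursors had values above 0, from 0.04 for Vip to 0.47 for Crh, none was called, and 0.00694% of all genes was (1 gene; 1316 genes at an unadjusted p under 0.05). DESeq2 called no precursor and 0.185% of genes. Cck (0.31 ± 0.144, edgeR adjusted p = 0.523) was the 1 precursor with an unadjusted p under 0.05, and Sst followed (0.28 ± 0.144, edgeR adjusted p = 0.548). The median over the 8 precursors was 0.244, beside -0.00772 over all genes. Against the same vehicle libraries, 7 of 8 were above 0 in sham (median 0.275) and 7 in anastrozole (median 0.1). In tamoxifen and exemestane 5 were above 0, and in raloxifene 4. With class in the model the counts were 8 in estradiol and tamoxifen, 7 in sham and raloxifene, and 6 in exemestane and anastrozole. Within class A, where all 5 estradiol and 4 vehicle libraries lie, the values were 0.23 for Cck, 0.19 for Sst and 0.29 for Adcyap1, and none was called.

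Tamoxifen against vehicle called no precursor (edgeR, none at an unadjusted p under 0.05) and 0% of all genes, and DESeq2 called no precursor and 0.668% of genes. Vip had 0.26 ± 0.180 and Tac1 0.41 ± 0.347. Anastrozole against vehicle likewise called no precursor, none at an unadjusted p under 0.05, and 0% of genes, with values between -0.08 and 0.27 (DESeq2 no precursor, 0.00664% of genes). Exemestane against vehicle called no precursor, none at an unadjusted p under 0.05, beside 6.51% of all genes (4.06% higher, 2.45% lower, DESeq2 no precursor, 18% of genes). Its values for Sst (-0.29 ± 0.145), Cck (-0.26 ± 0.145) and Vip (0.27 ± 0.179) had the signs of the class difference, and with class in the model they were 0.01, 0.02 and 0.04. Without exemestane replicate 5, its only class A library, Sst was called at -0.40. All of these comparisons share the 5 vehicle libraries.

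The agents of each kind were given at different doses, so their values are set side by side. Tamoxifen (3.23 mg/kg) and raloxifene (9.68 mg/kg) had 61.7 ± 11.3 and 52.5 ± 4.1 CPM of Sst and 14.3 ± 4 and 17.2 ± 2.72 CPM of Vip. The difference of tamoxifen from raloxifene was 0.23 for Sst (95% interval -0.06 to 0.53) and -0.27 for Vip (-0.63 to 0.09). None of the 8 precursors and 0% of genes was called, with no precursor at an unadjusted p under 0.05 and none called by DESeq2 (0.0465% of genes). Exemestane (0.16 mg/kg) and anastrozole (4.03 mg/kg) had 97.1 ± 10.3 and 127 ± 27.7 CPM of Cck. The difference of exemestane from anastrozole was -0.39 ± 0.145 for Cck (edgeR adjusted p = 0.105) and -0.36 ± 0.145 for Sst (edgeR adjusted p = 0.119), both at an unadjusted p under 0.05. No precursor and 0% of genes was called by edgeR, and no precursor and 12.3% of genes by DESeq2. Both genes were called when exemestane replicate 5, anastrozole replicate 3 or anastrozole replicate 4 was left out, and with class in the model the values were -0.19 and -0.16.

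The opioid precursors overlapped between all groups and, over all libraries, between classes. Penk, from which the enkephalins are cut, had 22.6, 13.8, 22, 9.95 and 16.2 CPM in vehicle and 33.4, 24.3, 16.2, 19.2 and 17.2 CPM in sham. Its highest value of all was in sham replicate 1, its lowest in the class B library of vehicle, and the groups overlapped. Inside groups, class B was below class A without overlap in vehicle. It was above class A without overlap in tamoxifen (19.9 to 21.9 against 15.6 and 18.4 CPM) and exemestane (15.3 to 20.5 against 13.9 CPM). In anastrozole the classes overlapped, and in vehicle and exemestane 1 side was a single library. The share of all genes separated without overlap inside these groups was not counted. Estradiol libraries had 20.9, 12.3, 22.4, 25.2 and 12.4 CPM of Penk, 3 libraries high and 2 low. Group means of Penk ran from 16.9 to 22.1 CPM. Within class B, tamoxifen against the 1 vehicle library gave 1.06 ± 0.221 (edgeR adjusted p = 0.0323), the 1 call on a precursor made inside a class, against 1.1% of all genes. That vehicle library is the lowest for Penk of all 35 and has no spread of its own, so the test assumes that it varies like the libraries of the other groups.

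Pdyn, the dynorphin precursor, varied widely inside every group, with coefficients of variation of 21.3% to 36.2%. Estradiol libraries had 64.4, 35.2, 54.2, 69.8 and 35.8 CPM of Pdyn, and vehicle libraries 48.3, 32, 53.4, 47.7 and 31.2 CPM. The anastrozole libraries fell into a low pair (36.8 and 31.2 CPM) and a higher set (65.9, 56.8 and 65.5 CPM), which did not follow class. Sham libraries had 18.4, 40.3, 34.9, 54.5 and 32.5 CPM of Pdyn, and replicate 1 was the lowest of all 35. Group means ran from 36.1 ± 13.1 CPM in sham to 51.9 ± 16 CPM in estradiol, and no neighbours in that order differed beyond their SD.

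Tac1, the tachykinin precursor, lay between 2.28 and 7.78 CPM in all libraries but sham replicate 1. Its group means, leaving sham aside, ran from 4.1 ± 1.22 CPM in vehicle to 5.88 ± 1.26 CPM in exemestane. Crh, the stress peptide, was the least counted, with 2 to 30 counts per library (0.228 to 2.65 CPM), and its intervals were the widest: against vehicle the 95% interval for estradiol ran from -0.37 to 1.31. Adcyap1 ranged from 9.29 to 18.9 CPM. In tamoxifen its class A libraries had 10.8 and 9.29 CPM and its class B libraries 18.9, 18 and 16.7 CPM, without overlap. In vehicle the 1 class B library (15.7 CPM) lay above those of class A (10.1 to 15.2 CPM). The classes overlapped in exemestane (13.7 CPM in A, 12.7 to 15.1 CPM in B). They also overlapped in anastrozole (11.4 to 14.6 CPM in A, 12.7 to 15.1 CPM in B). The share of all genes separated in this way was not counted for Adcyap1. The 5 class A libraries of sham lay at 15 CPM or above.

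Because Sst and Cck moved together between classes and Vip moved the other way, their ratios were also taken. They restate the class differences given above in another form. The log2 ratio of Sst to Cck CPM was -0.843 ± 0.138 in class A and -0.852 ± 0.132 in class B, so the means differed between classes by less than the SD within a class. The log2 ratio of Vip to Sst was -2.67 ± 0.262 in class A (range -3.19 to -2) and -1.76 ± 0.259 in class B (-2.24 to -1.28), which overlap little.

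**Figure D3:**
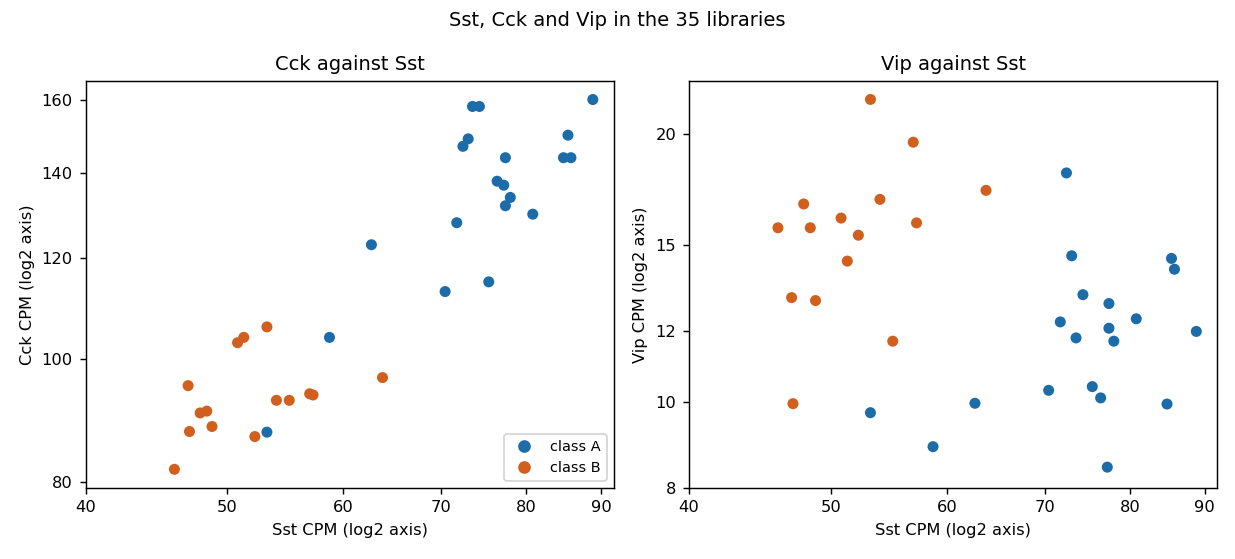
Cck against Sst (left) and Vip against Sst (right) in CPM on log2 axes, 1 point per library, blue for class A (20 libraries) and orange for class B (15 libraries). Class B lies at the lower end of both Cck and Sst, while Vip is mostly higher in class B, where Sst is lower.

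Since the libraries fall into 2 classes, correlations among the 28 pairs of precursors were taken within class, and over all 35 libraries on what remained after fitting group and class. In class A, Sst and Cck had r = 0.78 (permutation p = 0.0002, adjusted 0.0056) and rho = 0.53 (permutation p = 0.0182, adjusted 0.142). Without sham replicate 1 and vehicle replicate 5, r was 0.46 (permutation p = 0.0557), so the relation rests on those libraries. In class B it was 0.38 (permutation p = 0.157), and no pair passed the adjustment there. On the residuals, Vip and Cck had r = 0.66 (permutation p = 8e-05, adjusted 0.00224) and rho = 0.70 (adjusted 0.00056). Without the 2 libraries farthest from the median of Vip, r was 0.67. The pair had r = 0.55 in class A and 0.40 in class B, and in class B 0.04 without vehicle replicate 4 and raloxifene replicate 3. Vip and Crh had a residual r of 0.47 (permutation, adjusted p = 0.0322), and 0.54 without the 2 farthest libraries. Residual correlations of Sst with Cck (0.64), Sst with Vip (0.46), Vip with Adcyap1 (0.48) and Pdyn with Tac1 (-0.42) passed over 35 libraries and not without the 2 farthest (0.41, 0.34, 0.45 and -0.27). Permutation of residuals ignores the terms already fitted.

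Dissection and cell makeup were followed with lists of marker genes, each scored as the mean log2 CPM of its members. Over 56 pairs of a score and a precursor, the residual of Pdyn went with that of the dentate granule cell list, at r = 0.64 (permutation p = 3e-05, adjusted 0.00056) and rho = 0.55 (adjusted 0.00994). Without sham replicates 1 and 4 it was 0.49 (adjusted 0.0469), and the values were 0.69 within class A and 0.50 within class B. Vip (r = 0.78) and Cck (r = 0.80) went with the list of neocortical genes, both at a permutation-based adjusted p of 0.00028, and at 0.71 and 0.70 without sham replicate 1 and vehicle replicate 3. Within class A these were 0.74 and 0.73, and within class B 0.63 and 0.58, where that of Vip was 0.25 without tamoxifen replicate 4 and raloxifene replicate 3. Penk ran against the list of genes of the CA fields, at r = -0.59 (permutation, adjusted p = 0.00084), -0.56 without sham replicates 1 and 4, -0.63 in class A and -0.41 in class B. Tac1 had r = 0.60 with the thalamus and habenula list (rho = 0.15), and 0.23 without sham replicates 1 and 5, so that relation rests on those libraries. The summed level of the thalamus and habenula list, 11 of 14 genes tested, was 487 CPM in sham replicate 1 and 200 to 285 CPM in the other 34 libraries, and the dentate marker Prox1 was at its lowest there (70.2 CPM). The neocortical list, 12 of 14 genes tested, summed to 257 to 438 CPM in class A and 293 to 395 CPM in class B. The part of tissue makeup in the group values was not tested.

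**Figure D4:**
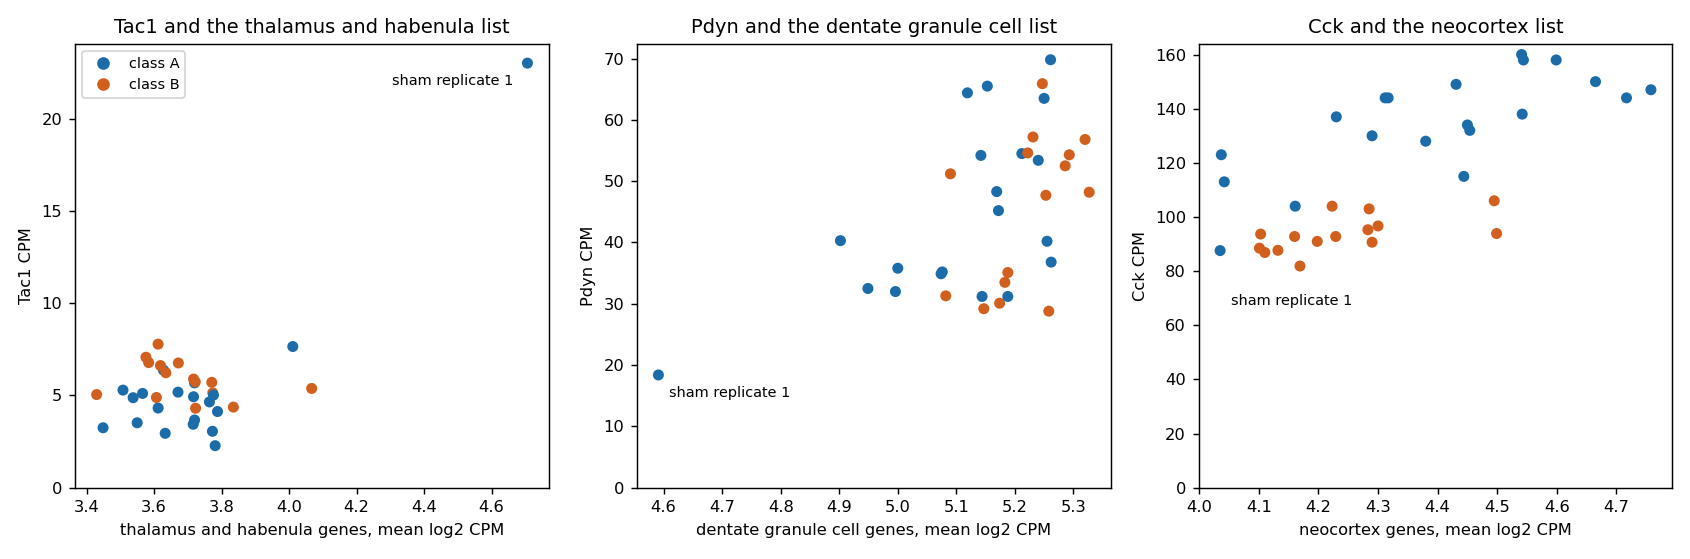
Tac1 against the score of thalamus and habenula genes, Pdyn against that of dentate granule cell genes, and Cck against that of neocortical genes. Each point is 1 of 35 libraries (blue class A, orange class B), horizontal axes give the mean log2 CPM of the list and vertical axes CPM. Sham replicate 1 is highest for Tac1 (23 CPM) and lowest for Pdyn (18.4 CPM) and for the dentate list.

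The genes whose residuals were most like those of each precursor over the 35 libraries were taken by Pearson's r, 3 per precursor. For Sst these were Slc6a17, Igfbp4 and Slc30a4 (each 0.78), and for Vip they were Bmper (0.84), Rgs4 (0.82) and Mef2c (0.81). For Cck they were Tmem132a (0.90), Ngef (0.89) and Lingo1 (0.88), and on log2 CPM without the fit these stood at 0.95, 0.86 and 0.96. Penk was nearest to Zfp354c (0.72), Orc4 (0.71) and Rhbdd3 (0.69). Pdyn was nearest to Kif17 (0.77), Ppp3ca (0.69) and the dentate marker C1ql2 (0.68). Tac1 was nearest to Elmo1 (0.81), Th (0.79) and Slc17a6 (0.76), and Slc17a6 too was highest in sham replicate 1 (136 CPM). On log2 CPM these 3 stood at 0.88, 0.85 and 0.83 within class A. Within class B, which does not hold that library, they stood at 0.51, 0.42 and 0.38. Crh was nearest to Myrip (0.67), Dbp (0.66) and Lrmp (0.63), and Adcyap1 to Kcnc2 (0.73), Rph3a (0.73) and Bmper (0.70), which also led for Vip. Slc30a4, with 0.78 on residuals, stood at -0.67 with Sst on log2 CPM, since it ran opposite to Sst between classes.

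Genes of the machinery that cuts and handles the precursors changed in both directions in raloxifene against vehicle, the comparison with 24.8% of genes called. Of 13 prohormone processing genes tested, 3 rose and 2 fell. Pcsk1, the convertase that cleaves many precursors, rose by 0.61 ± 0.160 (edgeR adjusted p = 0.0131), Scg5, the chaperone of the convertase Pcsk2, by 0.31, and Pam, which amidates peptide ends, by 0.22. Pcsk1n, the inhibitor of Pcsk1, had a log2 fold change of -0.84 ± 0.241 (edgeR adjusted p = 0.0172) and the protease Furin one of -0.27. With class in the model these were 0.31, 0.12, 0.13, -0.05 and -0.02, and none was called. Between classes Pcsk1n was 445 ± 32.5 CPM in A and 216 ± 24.1 CPM in B, and 4 of 13 processing genes were higher and 3 lower in class B, a share near the 51.9% of all genes.

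Of 16 receptors of these peptides tested, 1 fell and none rose in raloxifene, a smaller share than the 24.8% of all genes, and it was the delta opioid receptor Oprd1 (-0.77 ± 0.241, edgeR adjusted p = 0.0236). Oprd1 was also the 1 of 16 that fell in exemestane (-0.84 ± 0.245, edgeR adjusted p = 0.0452), beside 6.51% of all genes called. Oprd1 was 5.96 ± 1.38 CPM in class A and 3.31 ± 0.709 CPM in class B, and with class in the model it was at -0.23 and -0.46 and not called. Between classes 4 of 16 receptors were called, again a smaller share than the 51.9% of all genes: the somatostatin receptors Sstr3 (-0.29) and Sstr4 (-0.31) and Oprd1 were lower in B, and the neuropeptide Y receptor Npy1r (0.29) was higher. From a list of other neuropeptide precursors, 19 genes were tested in raloxifene. Of these, 1 rose and 1 fell, a smaller share than the 24.8% of all genes. Cbln4, a secreted synaptic organiser in that list and not itself a neuropeptide precursor, rose (0.70 ± 0.185, edgeR adjusted p = 0.0136). Pomc, the precursor of melanocortins and endorphin, fell (-0.84 ± 0.303, edgeR adjusted p = 0.0413). Pomc was low throughout, with means of 0.876 CPM in raloxifene and 1.56 CPM in vehicle and 0.575 to 2.28 CPM over all libraries. Cbln4 rose in exemestane also (0.76 ± 0.186, edgeR adjusted p = 0.0394). With class in the model Cbln4 stood at 0.57 in raloxifene and 0.65 in exemestane, Pomc stood at -0.33 in raloxifene, and neither was called. Pomc was itself lower in class B (-0.63, edgeR adjusted p = 0.0106). None of the 12 peptide-degrading and binding genes was called in raloxifene or exemestane.

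Genes of GABAergic interneurons in general were mixed in direction. Of 19 GABAergic genes tested in raloxifene against vehicle, the GABA-synthesising enzymes Gad2 (0.40) and Gad1 (0.23) and the secreted protein gene Nxph1 (0.40) rose, and the vesicular GABA transporter Slc32a1 (-0.56) and the potassium channel Kcnc1 (-0.34) fell. These 5 of 19 are a share near the 24.8% of all genes. Their list's median was -0.0906, beside -0.0234 over all genes, and none was called with class in the model. Between classes 2 of the 19 were higher and 6 lower in class B, a smaller share than the 51.9% of all genes. The summed level of the list was 1620 ± 116 CPM in class A and 1570 ± 51 CPM in class B.

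The granins, proteins of the dense-core vesicle that share the peptides' route, included 1 of the 6 genes called in sham with class in the model. Vgf, whose product is itself cut into peptides, was at 83.1 CPM in vehicle, 117 in sham and 129 CPM in estradiol. With groups alone it had a log2 fold change of 0.49 ± 0.142 in sham (edgeR adjusted p = 0.409) and 0.63 ± 0.143 in estradiol (edgeR adjusted p = 0.147). With class in the model Vgf stood at 0.40 ± 0.0769 in sham (edgeR adjusted p = 0.0466) and 0.54 ± 0.0776 in estradiol (edgeR adjusted p = 0.000541), when 0.0416% (0.0208% higher, 0.0208% lower) and 0.298% (0.222% higher, 0.0763% lower) of all genes were called. It was the 1 of 5 granins called in each, and the 8 precursors in that model had none called in either comparison, with Tac1 (1.27 ± 0.335, edgeR adjusted p = 0.182) the lowest in sham. Vgf was also lower in class B (-0.55 ± 0.0624).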

How the data were processed

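Stranded poly(A) libraries from RNA with an RQI above 7 were read as 100 bp pairs with a target of 30 M reads, per the labels' protocols. The submitters' processing notes name Salmon and DESeq2, and versions, build and annotation are not given in the sources used here. The authors deposited estimated counts per gene, already rounded to whole numbers, and normalized values (signal) whose ratio to the counts varied by gene and library.

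Counts were tested in R 4.3.3 with edgeR 4.0.16 (TMM, filterByExpr by group, robust quasi-likelihood, all 35 libraries, Benjamini-Hochberg over 14411 genes, threshold 0.05). The common biological coefficient of variation was 0.152. Library class was the sign of the first component of the gene-centred log ratio of the tables. Alternatives were DESeq2 1.42.0, RLE factors, no filter, class in the model, each class alone, the deposited per-gene factors as offsets, the compared groups alone, and each library left out. Correlations used log2 CPM with a prior count of 2 and 100000 permutations (SciPy 1.17.1). The scripts were tested on simulated data. The members and gene lists were chosen with earlier results of these data known. Precursors without a row under their symbol are not analysed here. Genes named beyond the precursors were at most 4 called genes of smallest p per list and comparison, or the 2 of smallest p where none was called, and 3 like genes per precursor. Kcnc1 and Furin in raloxifene, Baiap3, Drd2 and the thalamic and dentate markers were chosen after their values were seen.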

Additional observations from a re-analysis of the deposited data

Results flagged for a closer look

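Within each group of 5 libraries, the gap between an extreme library and its nearest neighbour was set against the range of the group (limit 0.71), and 6 of 56 combinations of a precursor and a group passed. Chance alone flags about 1 in 20 such groups. Sst in exemestane replicate 5 was 70.4 CPM, beside 47.9 to 50.8 CPM in the other 4, and it is the only class A library of that group. Vip in raloxifene replicate 3 was 21.9 CPM, beside 15.4 to 16.9 CPM. Crh was also high in that library, at 2.09 CPM beside 0.686 to 0.972 CPM. Crh in exemestane replicate 3 was 1.34 CPM, beside 0.624 to 0.739 CPM, on few counts. Penk in anastrozole replicate 2 was 25 CPM, beside 13.6 to 16 CPM. Tac1 in sham replicate 1 was 23 CPM, beside 3.06 to 7.65 CPM, in a library where the thalamus and habenula list (487 CPM) and the hypothalamus and amygdala list (679 CPM) were both at their highest sums, though 4 of the 11 thalamus and habenula genes were below their median. The cause of these values was not tested.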

How the results depend on the processing

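No paired analysis was possible because the labels give the groups no shared replicate numbers. The replicate numbers used here follow the order of the library titles within each group and pair no libraries. Raloxifene against vehicle called 1 precursor with groups alone, 0 with class in the model, with the authors' per-gene factors or in class B alone, and 2 (Sst and Vip) with the compared groups alone. In raloxifene the values of Sst and Cck changed sign, to 0.10 and 0.05 with class in the model and to 0.16 and 0.07 in class B alone. The test over all 7 groups called 2, against 0 with class in the model, the authors' factors, class A alone or class B alone, and 4 by DESeq2. Class B against A called 4, and 2 with the authors' factors. Tamoxifen against vehicle called 0, and 1 in class B alone, where vehicle is a single library assumed to vary like the other groups. Correlated pairs over all libraries numbered 2, 6 on residuals, 1 in class A, 0 in class B and 0 in class B without the 2 farthest libraries. Leaving out 1 library at a time gave 0 to 2 calls in raloxifene, 0 to 1 in exemestane, 0 to 2 in exemestane against anastrozole and 2 to 4 over the 7 groups. With class in the model as well, a fit chosen after seeing the data, it gave 0 throughout, log2 fold changes in raloxifene of 0.05 to 0.14 for Sst (0.07, 0.09, 0.10, 0.11 and 0.13 between them), -0.01 to 0.11 for Cck (0.00, 0.03, 0.04, 0.05, 0.06, 0.07 and 0.09) and -0.03 to 0.42 for Vip. Over the 7 groups the adjusted p of Cck ran from 0.000958 to 0.0095, or 0.283 to 0.821 with class, and that of Sst from 0.00105 to 0.0138, or 0.377 to 0.853. RLE factors and no filter changed no count of calls. Depth limits Crh most. Where class and group coincide, as in raloxifene, they cannot be told apart, and other causes of these changes were not tested.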
